A study of Mus musculus with 12 samples.

Results

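Cytosolic ribosomal protein genes encode the protein subunits of the ribosome outside the mitochondria. They were taken here as every probe set of the array table whose annotation gives exactly 1 gene symbol, with that symbol naming a protein of the large subunit (Rpl, including the stalk genes Rplp0, Rplp1 and Rplp2) or of the small subunit (Rps, including Rpsa). Pseudogenes and the S6 kinase genes were left out. The rule used names and no measured values. It found 108 probe sets of 67 genes, against 23521 probe sets of 22180 genes with 1 symbol and 33793 probe sets in all. The large subunit had 64 probe sets of 42 genes and the small subunit 44 probe sets of 25 genes. Rpl10, Rpl13a and Rps27a had no probe set with 1 symbol and were not analysed here.

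Primary CD8+ T cells from the spleens of C57BL/6 mice, enriched by removing other cells, were kept for 6 h in 1 of 4 conditions, with 3 arrays each. The groups were cells given an antibody against CD3 (anti-CD3) together with IFN-4a, cells given anti-CD3, cells given phosphate-buffered saline (PBS) with IFN-4a, and cells given PBS. Anti-CD3 engages the T cell receptor complex, IFN-4a is the interferon named in the labels of a series titled for type I interferon, and PBS was the mock treatment. Cells given anti-CD3 are called stimulated and cells given PBS resting. The labels give no genotype other than the strain, and no age or sex.

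The ribosome decodes mRNA on its small subunit and joins amino acids on its large subunit, and its assembly needs ribosomal proteins in matched amounts. In mammals most ribosomal protein mRNAs begin with a C followed by a run of pyrimidines, the 5′ terminal oligopyrimidine (TOP) tract, through which mTOR and LARP1 control how many of them are being translated. When T cells are activated they grow before they divide, and ribosome production is part of that growth. Interferons of type I are known mainly for inducing antiviral genes, some of which restrain protein synthesis.

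Values were the authors' log-scale values, taken as log2, with each probe set centred on its median over the 12 arrays. A value of 0 is therefore the median of that probe set, and exact levels cannot be read or compared between genes. The log base, not given in the sources used here, could also be natural, and every fold below would then be larger. The array medians were between -0.0157 and 0.0165, arrays of 1 group correlated at 0.727 to 0.858 over probe sets, and arrays of different groups at -0.824 to 0.543. Which probe sets stood at 8 or above before centring was inferred from the decimal steps of the values, and was not checked against uncentred values. By this inference 63 of the 108 ribosomal protein probe sets (58.3%) were at 8 or above on all 12 arrays, against 22.1% of all probe sets tested. The 5 markers of CD8 T cells (Cd8a, Cd8b1, Cd3d, Cd3e and Cd3g) were all at 8 or above on all arrays. Of 29 probe sets for markers of B, CD4 T, NK, myeloid, dendritic, granulocytic and erythroid cells, only that of Cd68 was. Where RNA of a mixed suspension is hybridised, fewer cells of a type and less RNA per cell cannot be told apart, and the same RNA amount went into each array, so a change in the ribosomal protein mRNA of a cell that matches a change in its total RNA does not appear. The labels do not say that replicates came from separate animals or days, so the p-values speak of the spread among these samples, which may be technical.

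Rps28 and Rplp2 each had a probe set with 1 symbol that rose with anti-CD3. They are set beside Rps6 and Rpl15, whose probe sets with 1 symbol had no called change with anti-CD3. The promoters of these 4 members are shown. Each runs from 60 bases before the annotated transcription start to 20 bases after it in RefSeq's annotation of GRCm38.p6, 5′ to 3′ on the strand of the gene. Capitals mark a C at the start that is followed by at least 4 pyrimidines, with the run from the start onward.
Rps28 (chr17:33824543-33824622, minus strand): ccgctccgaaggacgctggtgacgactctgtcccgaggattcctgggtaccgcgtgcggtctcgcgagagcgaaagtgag
Rplp2 (chr7:141447591-141447670, plus strand): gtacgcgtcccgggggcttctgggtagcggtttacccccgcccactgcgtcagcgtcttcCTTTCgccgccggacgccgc
Rps6 (chr4:86857348-86857427, minus strand): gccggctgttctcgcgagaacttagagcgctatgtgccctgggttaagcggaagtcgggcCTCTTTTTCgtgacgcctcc
Rpl15 (chr14:18270967-18271046, minus strand): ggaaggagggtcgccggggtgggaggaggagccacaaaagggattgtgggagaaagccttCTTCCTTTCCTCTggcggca

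Counted from the annotated start onward, the pyrimidine run was 5 bases long in Rplp2, 9 in Rps6 and 13 in Rpl15, and Rps28 had none. In Rplp2, Rps6 and Rpl15 pyrimidines also stand directly before the start and were not counted, so these lengths depend on the annotated start. The 4 members shown do not stand for their classes. Rpl35 and Rps18, each with a raised probe set, had runs of 11 and 9 bases, and Rps3 and Rps4x, without one, had none. RefSeq promoter windows, from 250 bases before to 50 after the start, were found for 52 of the 67 genes (61 windows). A pyrimidine run at the annotated start was present in 11 of the 61 windows (18.0%), against 2.51% of all 32851 windows. It was present in 3 of 27 windows (11.1%) of genes with a probe set of 1 symbol raised by anti-CD3, and in 8 of 34 windows (23.5%) of the other members. The letters CCGGAAG, the core bound by ETS-family factors, were found on either strand in 23 windows (37.7%), against 8.86% of all windows. The split was 11 of 27 windows (40.7%) of genes with a raised probe set and 12 of 34 (35.3%) of the others. CACGTG, the E-box core that reads the same on both strands and is bound by Myc with its partner Max, was found in 6 windows (9.84%), against 7.15% of all. A match is a description of the letters, and an annotated start that is off by a base hides a pyrimidine run.

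Stimulation with anti-CD3 changed some ribosomal protein probe sets and left most without a call. Compared with PBS, 27 of 108 probe sets rose (25%) and 5 fell (4.63%) at a limma adjusted p under 0.05, where 13.9% of all 23521 probe sets tested rose and 17.5% fell. The 27 that rose belonged to 27 genes. The median change over the 108 was 0.01 on the log2 scale, against -0.04 over all probe sets tested, and the changes ran from -0.29 to 1.52. In the large subunit 17 of 64 probe sets rose and 3 fell, and in the small subunit 10 of 44 rose and 2 fell. With IFN-4a present in both arms, 31 rose (28.7%) and 1 fell (0.926%), beside 12.8% and 14.5% of all probe sets, with a median change of 0.06 against -0.03. There the large subunit had 19 raised and 1 lowered, and the small subunit 12 raised and none lowered.

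**Figure D1:**
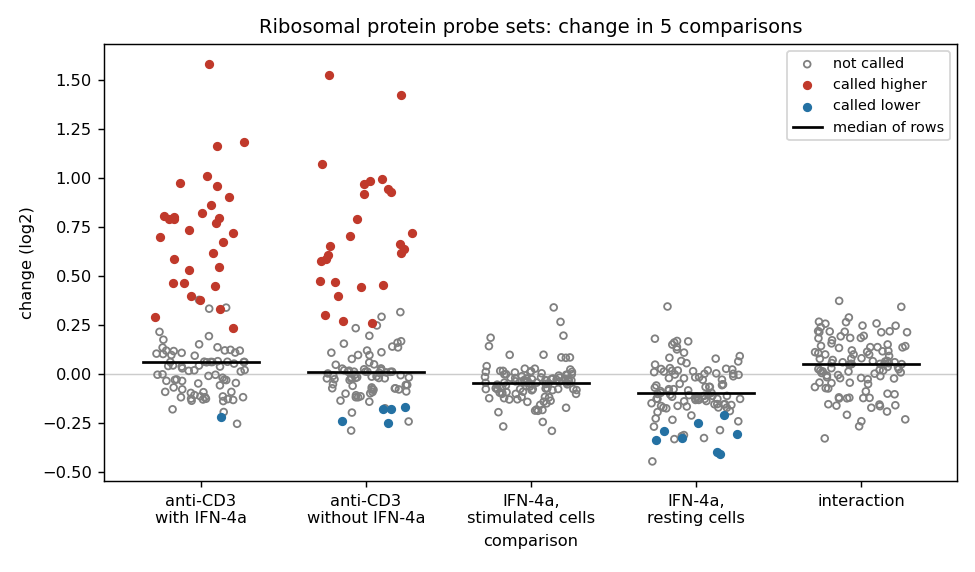
Each point is 1 of the 108 ribosomal protein probe sets, and the vertical axis is its change on the log2 scale in each of the 5 comparisons. Filled points were called by limma (red higher, blue lower) and black bars are medians. The called increases with anti-CD3 reach 1.58, while the called decreases with IFN-4a in resting cells end at -0.41.

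The largest increase was that of a probe set of Rpl3 (17319403), which encodes a protein near the peptidyl transferase centre. It read 0.54, 0.67 and 0.79 with anti-CD3 and IFN-4a, 0.99, 0.97 and 0.84 with anti-CD3, -0.83, -0.93 and -0.99 with PBS and IFN-4a, and -0.64, -0.54 and -0.59 with PBS. All 6 stimulated arrays were above all 6 resting ones. With anti-CD3 the group mean was 0.93 ± 0.08, against -0.59 ± 0.05 with PBS (SD, n = 3 each), a rise of 1.52 (SE 0.07, 2.87-fold, limma adjusted p = 2.04e-09). With IFN-4a in both arms the rise was 1.58 (SE 0.07, 2.99-fold, adjusted p = 1.36e-09).

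Rps20, a small subunit protein of the head of the subunit, followed. Its probe set 17422988 read 0.85, 0.58 and 0.49 with anti-CD3 and IFN-4a, 0.91, 0.90 and 0.67 with anti-CD3, -0.51, -0.49 and -0.63 with PBS and IFN-4a, and -0.59, -0.64 and -0.56 with PBS. The stimulated and resting arrays did not overlap. It rose by 1.42 without IFN-4a (SE 0.09, 2.68-fold, limma adjusted p = 3.03e-08) and by 1.18 with it (2.27-fold, adjusted p = 2.15e-07).

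Rps28 (17343643), a small protein near the exit of the mRNA channel, read 0.67, 0.46 and 0.74 with anti-CD3 and IFN-4a, 0.77, 0.83 and 0.34 with anti-CD3, -0.62, -0.34 and -0.66 with PBS and IFN-4a, and -0.48, -0.39 and -0.40 with PBS. One anti-CD3 array was well below the other two, and still above every resting array. The rise was 1.07 without IFN-4a (SE 0.12, 2.10-fold, limma adjusted p = 1.01e-05) and 1.16 with it (2.24-fold, adjusted p = 5.28e-06).

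Rps24 (17297692), whose human counterpart is mutated in some cases of Diamond-Blackfan anaemia, rose by 0.98 without IFN-4a (SE 0.18, 1.97-fold, limma adjusted p = 0.000807) and by 0.79 with it (adjusted p = 0.00467). Its stimulated arrays lay close together, 0.22, 0.19 and 0.16 with anti-CD3 and IFN-4a and 0.28, 0.33 and 0.26 with anti-CD3. Its resting arrays were scattered, -0.48, -0.16 and -1.16 with PBS and IFN-4a and -0.93, -0.63 and -0.51 with PBS, without reaching the stimulated ones.

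The acidic stalk of the large subunit, which recruits elongation factors, is built from Rplp0 and pairs of Rplp1 and Rplp2, and its genes did not move together. Rplp2 (17484897) read 0.31, 0.73 and 0.49 with anti-CD3 and IFN-4a, 0.39, 0.61 and 0.64 with anti-CD3, -0.60, -0.48 and -0.43 with PBS and IFN-4a, and -0.31, -0.42 and -0.61 with PBS. Every stimulated array was above every resting one, and the rise was 0.99 without IFN-4a (SE 0.11, 1.99-fold, limma adjusted p = 6.65e-06) and 1.01 with it (2.01-fold, adjusted p = 6.47e-06). Rplp0 had a probe set (17441191) that rose by 0.59 without IFN-4a (SE 0.14, adjusted p = 0.00622) and by 0.46 with it (adjusted p = 0.0290). The second call was lost when any 1 of 4 arrays was left out, with adjusted p up to 0.132 without the first PBS with IFN-4a array. The other Rplp0 probe set (17512171) had changes of -0.12 and 0.10 that were not called. For Rplp1, 1 of 2 probe sets (17527927) read -0.08, -0.04 and -0.02 with anti-CD3, against 0.17, 0.21 and 0.21 with PBS, and fell by 0.24 (SE 0.07, adjusted p = 0.0184). That call was lost under quantile normalization (adjusted p = 0.0613) and without any 1 of 3 arrays (0.0506 to 0.0649, the highest without the first anti-CD3 array). With IFN-4a its change was -0.03 (adjusted p = 0.841), and the other Rplp1 probe set was not called in either comparison.

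Rpl5 and Rpl11 bind 5S ribosomal RNA, and the free particle is known to inhibit Mdm2 and so stabilise p53. Both genes rose. Rpl5 read 0.23, 0.45 and 0.23 with anti-CD3 and IFN-4a, 0.48, 0.32 and 0.07 with anti-CD3, -0.40, -0.47 and -0.64 with PBS and IFN-4a, and -0.30, -0.07 and -0.60 with PBS. The lowest anti-CD3 array and the highest PBS array lay close to each other without overlap. Its rise was 0.62 without IFN-4a (SE 0.13, 1.53-fold, limma adjusted p = 0.00212) and 0.81 with it (1.75-fold, adjusted p = 0.000267). Rpl11 read 0.37, 0.64 and 0.31 with anti-CD3 and IFN-4a, 0.36, 0.45 and 0.22 with anti-CD3, -0.57, -0.45 and -0.38 with PBS and IFN-4a, and -0.22, -0.38 and -0.29 with PBS. It rose by 0.64 without IFN-4a (SE 0.09, 1.56-fold, adjusted p = 6.04e-05) and by 0.90 with it (1.87-fold, adjusted p = 2.72e-06).

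On the small subunit, the probe sets with 1 symbol of Rps6, the substrate of S6 kinase, and of Rps3, which lines the mRNA entry, had no called change. Rps6 read -0.05, -0.10 and 0.00 with anti-CD3 and IFN-4a, 0.01, 0.01 and -0.04 with anti-CD3, 0.03, -0.01 and -0.07 with PBS and IFN-4a, and 0.01, 0.00 and 0.03 with PBS. The 4 groups overlapped, and its anti-CD3 change was -0.02 (SE 0.05, limma adjusted p = 0.797). Rps3 had an anti-CD3 change of -0.02 (SE 0.05, adjusted p = 0.811) without IFN-4a and 0.04 (adjusted p = 0.640) with it. Probe sets that list these genes with other symbols moved: that of Rps6 and a pseudogene rose by 0.74 without IFN-4a (limma adjusted p over all rows 4.97e-06), and that of Rps3 and the small nucleolar RNA Snord15b fell by 0.47 (0.00723). Rpsa, which is also known as a laminin receptor, had a probe set (17523177) that rose by 0.65 without IFN-4a (SE 0.20, adjusted p = 0.0252) and by 0.67 with it (adjusted p = 0.0233). Its resting arrays fell into high and low ones, -0.87, -0.77 and -0.05 with PBS and IFN-4a and -0.12, 0.00 and -0.76 with PBS. The call without IFN-4a was lost when any 1 of 4 arrays was left out (the highest adjusted p, 0.116, with the third PBS array left out), and the call with IFN-4a likewise (up to 0.110, without the first PBS with IFN-4a array).

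**Figure D2:**
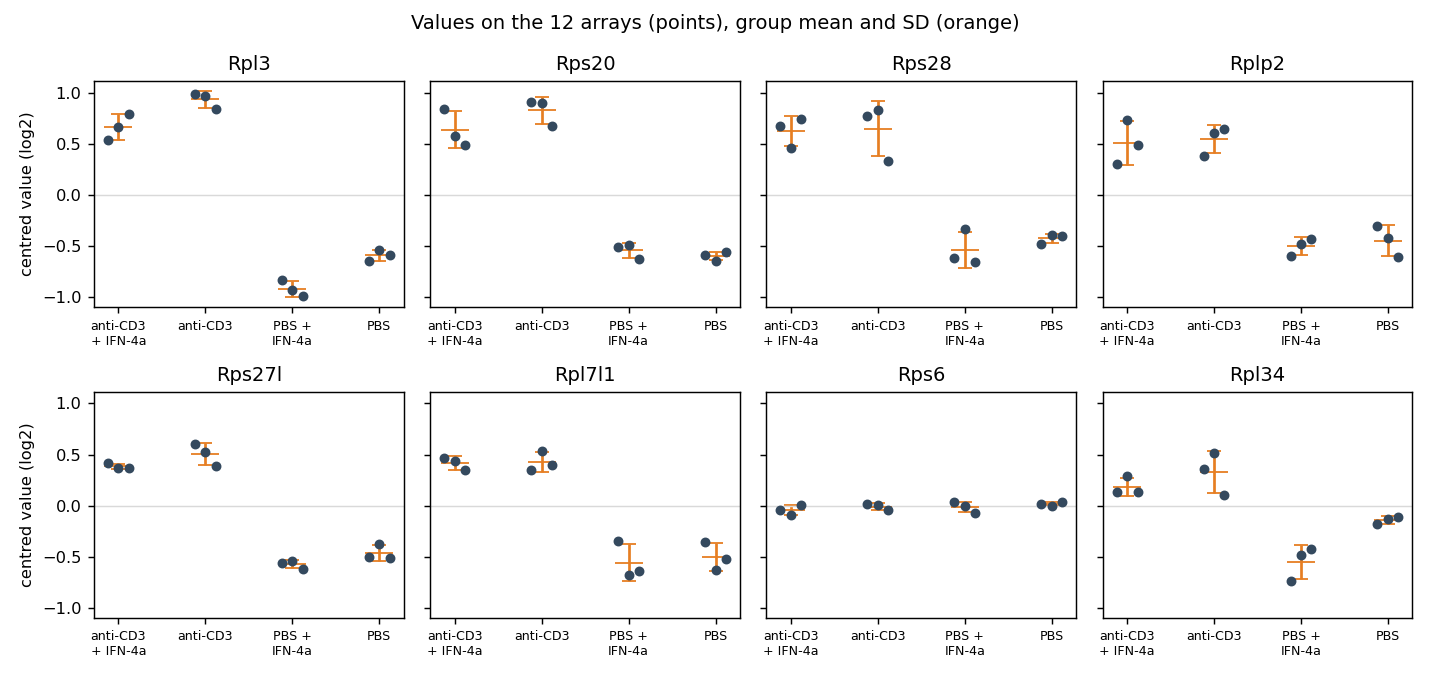
The centred log2 values of 8 probe sets are plotted by group, with 1 point per array and the group mean and SD in orange (n = 3 arrays per group). Rpl3, Rps20, Rps28, Rplp2, Rps27l and Rpl7l1 have all 6 stimulated arrays above all 6 resting ones, Rps6 stays between -0.10 and 0.03, and Rpl34 is lowest on the arrays with PBS and IFN-4a.

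Several ribosomal proteins have a paralog with a separate name. Rps27l, a p53 target in human and mouse cells, and Rpl7l1, a relative of Rpl7, rose. Rps27l read 0.42, 0.37 and 0.37 with anti-CD3 and IFN-4a, 0.60, 0.53 and 0.39 with anti-CD3, -0.56, -0.54 and -0.62 with PBS and IFN-4a, and -0.50, -0.37 and -0.51 with PBS. It rose by 0.97 without IFN-4a (SE 0.06, 1.95-fold, limma adjusted p = 4.70e-08) and by 0.96 with it (1.95-fold, adjusted p = 5.49e-08). Its partner Rps27 had changes of 0.14 (adjusted p = 0.485) and 0.33 (adjusted p = 0.0708). The call of Rps27 with IFN-4a was reached (adjusted p = 0.0210) when the first array with anti-CD3 and IFN-4a was left out, and when the third with PBS and IFN-4a was (0.0177).

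Rpl7l1 read 0.47, 0.44 and 0.35 with anti-CD3 and IFN-4a, 0.35, 0.53 and 0.40 with anti-CD3, -0.35, -0.68 and -0.64 with PBS and IFN-4a, and -0.36, -0.63 and -0.52 with PBS. It rose by 0.93 without IFN-4a (SE 0.09, 1.90-fold, limma adjusted p = 2.86e-06) and by 0.97 with it (1.96-fold, adjusted p = 2.08e-06). The 2 probe sets of Rpl7 had changes of 0.17 and 0.19 without IFN-4a (adjusted p = 0.386 and 0.436) and were not called. The change with IFN-4a of 1 of them, 0.38 (adjusted p = 0.112), was called (adjusted p = 0.0282) when the third array with anti-CD3 and IFN-4a was left out, and when the third with PBS and IFN-4a was (0.0257).

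Rpl22l1, whose partner Rpl22 binds RNA in T cell development, moved the other way. It read -0.01, -0.15 and -0.02 with anti-CD3, against 0.34, 0.06 and 0.18 with PBS, and fell by 0.25 (SE 0.08, limma adjusted p = 0.0215). The call was lost under quantile normalization (adjusted p = 0.0551) and without the first PBS array (0.101) or the second anti-CD3 array (0.0989). Rpl22 had a change of 0.16 (adjusted p = 0.145). Rpl39l, expressed mainly in testis, had a change of -0.01 without IFN-4a. With IFN-4a it read -0.12, 0.00 and -0.05 in stimulated cells, against 0.26, 0.06 and 0.16 in resting cells, and fell by 0.22 (adjusted p = 0.0487). Its call was lost without any 1 of 9 arrays (adjusted p up to 0.189, without the first PBS with IFN-4a array). The probe sets with 1 symbol of Rpl39, Rpl10l, Rps4x, Rps4l and Rpl3l had no called change in any of the 5 comparisons.

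Raised probe sets of Rpl21, Rpl27 and Rps19 are given below with the genes that had several probe sets. Another 13 raised probe sets, named after their values were seen, rose less than the 5 leading ones. Their increases without IFN-4a lay between 0.27 (Rpl26, limma adjusted p = 0.0457) and 0.79 (Rpl35, adjusted p = 0.00127). Rpl6 (0.72), Rpl37 (0.70), Rps7 (0.66), Rpl17 (0.61) and Rpl9 (0.58) stood in the upper part of that range, and Rps18 (0.47), Rpl34 (0.47), Rps23 (0.45), Rps14 (0.44), Rpl37a (0.40) and Rpl7a (0.30) in the lower part. With IFN-4a in both arms the same probe sets had increases between 0.33 (Rps23, adjusted p = 0.0190) and 0.86 (Rpl9, adjusted p = 1.47e-06). Rps14, whose loss from 1 chromosome copy underlies the anaemia of the human 5q deletion syndrome, read 0.28, 0.35 and 0.12 with anti-CD3, against -0.21, -0.26 and -0.12 with PBS. The arrays of the groups did not overlap. Rps7, which like Rpl5 and Rpl11 can bind Mdm2, read 0.14, 0.55 and 0.54 with anti-CD3, against -0.36, -0.26 and -0.14 with PBS. With IFN-4a its arrays overlapped, -0.01, 0.14 and 0.23 in stimulated cells against -0.35, -0.49 and 0.01 in resting cells (0.39, adjusted p = 0.0387). The 76 probe sets without a call had changes from -0.29 to 0.31.

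The remaining decreases with anti-CD3 were small. They were those of Rpl19 (17499620, -0.17, limma adjusted p = 0.0340) and of 2 probe sets of Rps19 with almost the same values (-0.18 each, adjusted p = 0.0488 and 0.0477). Rps19 is the gene most often mutated in Diamond-Blackfan anaemia. The Rpl19 call was lost without any 1 of 5 arrays (the highest adjusted p, 0.118, with the third PBS array left out), and the Rps19 calls without any 1 of 10 arrays (up to 0.172, without the second PBS array). Shifting each array to a median of 0 also ended both, with adjusted p of 0.0627 for Rpl19 and of 0.0863 and 0.0845 for Rps19.

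Different probe sets of 1 gene disagreed. Of the 67 genes, 24 had several probe sets with distinct values, and the change with anti-CD3 of these probe sets differed within a gene by a median of 0.41. In 13 of the 24 genes 1 probe set rose, and in each of these at least 1 other probe set did not. No gene of the 24 had every probe set raised. The widest gap was in Rpl3, where the probe sets other than 17319403 had changes of -0.08 and -0.11 (limma adjusted p = 0.770 and 0.355). The second probe set of Rps20 had a change of 0.03, that of Rps28 -0.14, and that of Rpsa -0.07, and the 2 others of Rps24 had 0.02 and -0.01. Chosen for the gap after their values were seen, Rpl21 had 0.94 against -0.07 and -0.06, and Rpl27 0.92 against -0.02. Rps19 was the gene with a raised probe set (17475112, 0.26, adjusted p = 0.0180) and lowered ones.

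Among the 13 genes, the probe sets that did not rise had changes between -0.29 and 0.12. In 9 of them the raised probe set was not found at 8 or above on all arrays while another one was, and in 3 (Rpl3, Rpsa and Rpl7a) the raised probe set was itself at 8 or above on all arrays. A raised probe set can miss that level on its resting arrays alone, so this class is not independent of the rise. Among the 43 genes with 1 distinct probe set, 14 rose and 1 fell. Ribosomal protein genes have many processed pseudogenes with nearly the same sequence, and which transcripts each probe set binds was not tested. Averaging the probe sets of a gene gave changes without IFN-4a of 0.44 for Rpl3 (limma adjusted p = 0.000383) and 0.29 for Rpsa (0.0430). The mean was not called for Rplp0 (0.23, 0.129), Rplp1 (-0.05, 0.699), Rps19 (-0.03, 0.750) or Rpl19 (-0.13, 0.0629). With IFN-4a in both arms the mean for Rplp0 was not called either (0.28, 0.0745).

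Probe sets that list a named gene together with other symbols were outside the rule, and some of them differed from those above. Their adjusted p is over all rows of the table. The probe set listing Rpl15 and Gm10224 rose by 0.46 without IFN-4a (limma adjusted p = 0.00262) and by 0.80 with it (3.85e-05). The one listing Rpl39 and 2 predicted genes fell by 0.34 with anti-CD3 (0.000711) and by 0.36 with IFN-4a in resting cells (0.00217), and its interaction was 0.42 (0.0475). Without IFN-4a, anti-CD3 changes went against the raised probe set of the gene in those listing Rplp2 with Snora52 (-0.46, adjusted p = 0.0107), Rpl5 with a pseudogene (-0.28, 0.0213) and Rpl37a with Mir682 (-0.27, 0.0103). The one listing Rps27 with Rps27rt fell by 0.21 (0.00567). Those listing Rpl21 with predicted genes rose, as did the raised probe set of Rpl21, by 0.56 (0.000336) and 0.58 (0.00449). Which of the listed transcripts these values measure was not tested.

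**Figure D3:**
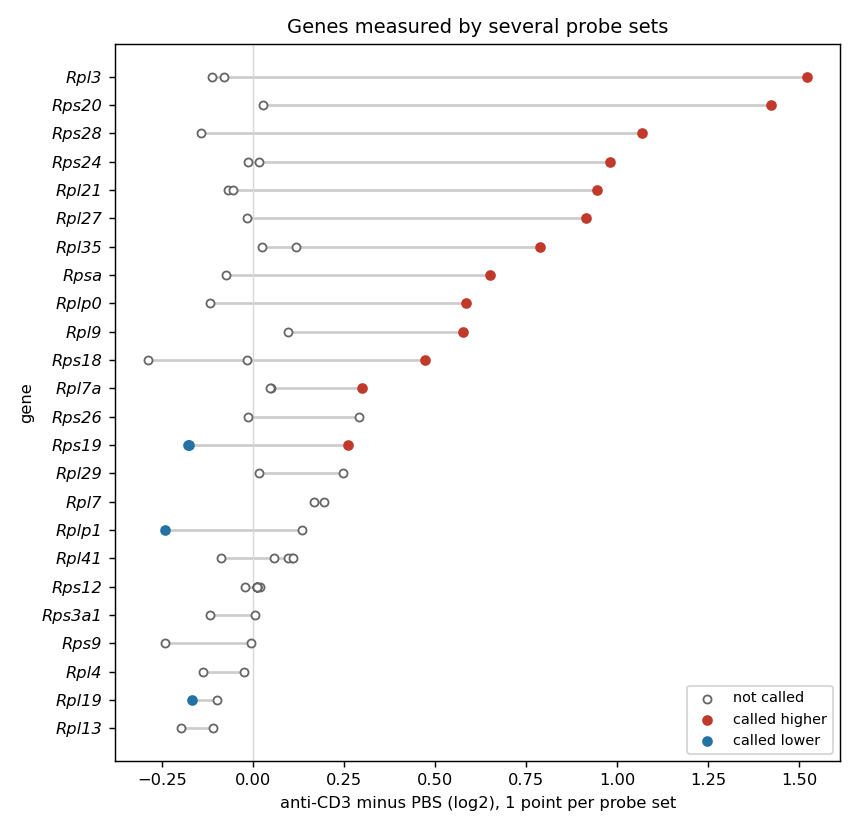
For each of the 24 genes with several distinct probe sets, points give the change with anti-CD3 relative to PBS (log2) of each probe set, joined by a line. Filled points were called (red higher, blue lower). In the 13 genes with a red point at least 1 other point lies between -0.29 and 0.12.

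The same division was seen over all members. Of the 63 probe sets at 8 or above on all arrays before centring, 4 rose and 4 fell with anti-CD3 (6.35% each), while among all 5192 tested probe sets at that level 32.8% rose and 35.7% fell. Of the other 45 ribosomal protein probe sets, 23 rose (51.1%) and 1 fell, beside 8.51% and 12.3% of the other 18329 tested. With IFN-4a in both arms, 6 of the 63 rose and none fell, beside 29.8% and 34.4% of all probe sets at that level, and 25 of the 45 rose and 1 fell, beside 7.998% and 8.79% of the others. The 4 raised probe sets at this level without IFN-4a were those of Rpl3, Rpsa, Rpl34 and Rpl7a. A probe set near 8 can leave the upper class through its own change, so the classes are not independent of the response. With 8 or above on the 6 highest arrays instead, 12 of 72 rose and 4 fell without IFN-4a, beside 34.1% and 34.4% of all probe sets of that class, and 15 of the other 36 rose and 1 fell, beside 5.76% and 10.7%. For a probe set raised by anti-CD3 the 6 highest arrays are mostly stimulated ones, so it can enter this class through its rise. Neither class therefore separates level from response.

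The changes with anti-CD3 in the presence and in the absence of IFN-4a come from comparisons that share no arrays. All 27 probe sets that rose without IFN-4a also rose with it, which is 100% of the first list and 87.1% of the second. The matching shares of calls and of signs over all probe sets were not computed, so the overlap is not shown to be particular to ribosomal protein genes. The 4 that were called with IFN-4a only belonged to Rpl27a (0.29, limma adjusted p = 0.0216), Rpl29 (0.46, adjusted p = 0.00401), Rps12 (0.23, adjusted p = 0.0112) and Rps15 (0.53, adjusted p = 0.0261). Their changes without IFN-4a were 0.15, 0.25, -0.02 and 0.31, and the difference between the comparisons passed the test for none of them (adjusted p = 0.282 for Rps12 and at least 0.670 for the others). Across the 108 probe sets the changes had a Pearson correlation of 0.928 and a Spearman correlation of 0.733, against a Pearson correlation of 0.902 over all probe sets tested, and 85 of 108 had the same sign. The probe sets are not independent, since several measure 1 gene and all share the arrays.

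**Figure D4:**
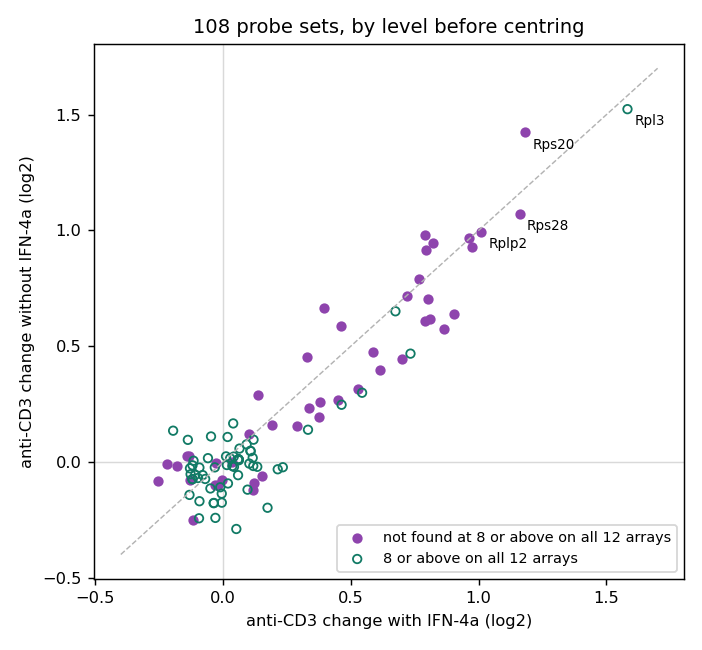
The change with anti-CD3 in the presence of IFN-4a (horizontal, log2) is plotted against that in its absence (vertical, log2) for 108 probe sets, with the line of equal change dashed. Open green circles stood at 8 or above on all 12 arrays before centring; most of them lie near 0, and the labelled probe sets of Rpl3, Rps20, Rps28 and Rplp2 are highest on the vertical axis.

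In resting cells IFN-4a lowered a few ribosomal protein probe sets, and no increase was called. Compared with PBS, 8 of 108 fell (7.41%) and 0 rose, where 8.08% of all probe sets fell and 4.17% rose, so the share that fell was near that of all probe sets. At an unadjusted p under 0.05 there were 27 (25%), beside 26.2% of all probe sets. The median change was -0.10, against -0.01 over all probe sets, and 81 of the 108 changes were negative (75%), beside 53.3% of all probe sets. At 8 or above on all arrays, 82.5% of the ribosomal protein probe sets had negative changes, beside 67.4% of all at that level. Of the other ribosomal protein probe sets 64.4% did, beside 49.3% of all others. Of all 5192 probe sets at 8 or above on all arrays, 16.3% fell, with a median of -0.06, and of the 63 ribosomal protein probe sets at that level 6 fell (9.52%), with a median of -0.12. The median value over the 108 probe sets was -0.02, -0.08 and -0.14 on the arrays with PBS and IFN-4a, against -0.01, 0.02 and 0.00 on those with PBS. The third array with PBS and IFN-4a was the lowest, and without it the median change was -0.07. Without that array 9 probe sets fell and 2 rose, among them a probe set of Rplp1 (17496653) with 0.55 (limma adjusted p = 0.0128), against 0.34 (0.183) with it.

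The called decreases were at most 1.33-fold. Rpl34, a protein of the large subunit, read -0.74, -0.48 and -0.42 with PBS and IFN-4a, against -0.18, -0.13 and -0.11 with PBS. The groups did not overlap, and it fell by 0.41 (SE 0.10, limma adjusted p = 0.0180). Rpl29 (17521204) read -0.36, -0.60 and -0.26 with PBS and IFN-4a, against -0.15, 0.01 and 0.13 with PBS, and fell by 0.40 (SE 0.11, adjusted p = 0.0257). Rpl37a read -0.42, -0.41 and -0.68 with PBS and IFN-4a, against -0.22, -0.05 and -0.22 with PBS, and fell by 0.34 (SE 0.10, adjusted p = 0.0355).

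The probe set of Rpl3 that rose most with anti-CD3 fell by 0.33 with IFN-4a in resting cells (SE 0.07, limma adjusted p = 0.00973). Its 3 arrays with PBS and IFN-4a were all below its 3 arrays with PBS. Rpl9 (17448295) read -0.61, -0.42 and -0.64 with PBS and IFN-4a, against -0.32, -0.24 and -0.20 with PBS, and fell by 0.31 (SE 0.08, adjusted p = 0.0240). The other 3 were Rpl10a (-0.21, adjusted p = 0.0435), Rps25 (-0.29, adjusted p = 0.0443) and a probe set of Rps12 (17360842, -0.25, adjusted p = 0.0191). Rps25 is known for its part in translation from viral internal entry sites. The probe sets of Rpl3, Rpl34, Rpl37a and Rpl9 that fell here also rose with anti-CD3 without IFN-4a, by 1.52, 0.47, 0.40 and 0.58, in a comparison that shares the PBS arrays with this one.

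Most of these calls depended on single arrays. The count of 8 became 2 without the first array with PBS and IFN-4a, without the second PBS array or without the third PBS array, 4 without the second array with PBS and IFN-4a, and 5 without the second anti-CD3 array. Among the 5 largest, the Rpl3 call held without each of the 12 arrays in turn, but the other Rpl3 probe sets were not called (0.17 and -0.16, adjusted p = 0.551 and 0.250) and the mean of the probe sets of Rpl3 was not either (-0.11, 0.417). The mean for Rpl9 was not called (-0.06, 0.667). Those of Rpl34, Rpl29, Rpl37a and Rpl9 were each lost without at least 3 of the arrays, with adjusted p up to 0.0792 (Rpl34, without the first PBS with IFN-4a array), 0.115 (Rpl29, with the second array of PBS and IFN-4a left out), 0.129 (Rpl37a, without the second PBS array) and 0.0867 (Rpl9, without the first PBS with IFN-4a array). Rpl37a was also lost under quantile normalization (0.0858) and without the second anti-CD3 array (0.0504).

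In stimulated cells IFN-4a gave no called change in the 108 probe sets, beside 3.32% of all probe sets called, 1.97% higher and 1.36% lower, and 3 had an unadjusted p under 0.05 (2.78%, beside 14.9% of all). The changes lay between -0.29 and 0.34, with a median of -0.05 against 0.00 over all probe sets. The lowest adjusted p was that of the same Rpl3 probe set, which read 0.54, 0.67 and 0.79 with anti-CD3 and IFN-4a, against 0.99, 0.97 and 0.84 with anti-CD3 (-0.27, SE 0.07, limma adjusted p = 0.0661). It passed with array weights (adjusted p = 0.0326) and when the third array with anti-CD3 and IFN-4a was left out (0.0392). The IFN-4a changes in resting and stimulated cells, which share no arrays, had a Pearson correlation of 0.321 and a Spearman correlation of 0.198 across the 108 probe sets, against a Pearson correlation of 0.756 over all probe sets.

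No ribosomal protein probe set was called in the interaction, the difference between the IFN-4a changes of stimulated and of resting cells (stimulated minus resting), where 0.855% of all probe sets were called. At an unadjusted p under 0.05 there were 3 (2.78%, beside 10.8% of all), the lowest limma adjusted p was 0.282, and the differences lay between -0.33 and 0.37 with a median of 0.05. For Rpl34 the difference was 0.27 (adjusted p = 0.549) and for the Rpl3 probe set 0.06 (adjusted p = 0.896). The IFN-4a change of the ribosomal protein probe sets was therefore not shown to differ between resting and stimulated cells.

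Other genes of the same pathway were read for context. Of 17 probe sets of the 15 ribosome assembly factor genes listed, 16 rose with anti-CD3, where 13.9% of all probe sets rose without IFN-4a and 12.8% with it. Their median change was 1.12 without IFN-4a and 1.33 with it. Bysl, needed for the small subunit, rose by 2.33 without IFN-4a (SE 0.06, limma adjusted p = 3.20e-12). Ltv1, which helps mature the small subunit, rose by 1.89, Pno1, a partner of the nuclease Nob1, by 1.83, and Grwd1, a chaperone of Rpl3, by 2.23 with IFN-4a. The exception was Nop53, a factor of large subunit assembly, which fell by 0.45. With IFN-4a in resting cells 9 of the 17 fell, led by Grwd1 (-0.46, SE 0.08, adjusted p = 0.00142), Pno1 (-0.45) and Ltv1 (-0.39), and none rose, where 8.08% of all probe sets fell. In stimulated cells 1 fell, Ltv1 (-0.22, adjusted p = 0.0464), where 1.36% of all probe sets fell.

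Translation genes whose mRNAs are known to carry a TOP start, or that encode ribosomal proteins under other names, were measured by 20 probe sets of 16 genes. With anti-CD3 8 rose and 3 fell without IFN-4a (median 0.12), beside 13.9% and 17.5% of all probe sets. With IFN-4a in both arms 11 rose and 1 fell (median 0.18), beside 12.8% and 14.5%. Of the 20, 19 stood at 8 or above on the 6 highest arrays, a class that a probe set can enter through its own rise. Of all probe sets in that class, 34.1% rose and 34.4% fell without IFN-4a, and 31.5% and 33.2% with it. Npm1, a nucleolar chaperone, rose by 1.63 (SE 0.12, limma adjusted p = 1.53e-07), Eif3l, an initiation factor subunit, by 0.63, and a probe set of the elongation factor gene Eef1a1 by 0.63. With IFN-4a in resting cells 4 fell and none rose, among them Eif3l (-0.43, adjusted p = 0.000461), Eif4b (-0.30) and Eef1g (-0.22). There 8.08% of all probe sets and 17.7% of that class fell. In stimulated cells none of the 20 was called, beside 3.32% of all probe sets.

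Of 10 regulators of ribosomal protein synthesis, 4 rose and 4 fell with anti-CD3 without IFN-4a, beside 13.9% and 17.5% of all probe sets. All 10 stood at 8 or above on the 6 highest arrays, the class that can be entered through a rise. Of all probe sets in that class, 34.1% rose and 34.4% fell. Myc, which drives genes of ribosome production, rose by 2.75 (SE 0.08, 6.71-fold, limma adjusted p = 2.18e-11), Larp1, which holds TOP mRNAs, by 1.33, and Rheb, the activator of mTOR complex 1, by 0.76. With IFN-4a in both arms 4 rose and 2 fell, beside 12.8% and 14.5% of all probe sets and 31.5% and 33.2% of that class. In resting cells IFN-4a lowered 3, namely Eif4ebp1, which blocks cap-dependent initiation until mTOR phosphorylates it (-0.44, adjusted p = 0.00451), Rptor, a subunit of mTOR complex 1 (-0.36), and Tsc1, an inhibitor of Rheb (-0.28), and raised none, and in stimulated cells it changed none. With IFN-4a 8.08% of all probe sets and 17.7% of that class fell in resting cells, and 3.32% of all were called in stimulated cells. None of the regulators, the assembly factors or the TOP translation genes was called in the interaction, where Eif4ebp1 came lowest with an adjusted p of 0.0748.

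Markers of other cells were set beside these results. With anti-CD3 without IFN-4a, 3 of the 5 CD8 T cell markers fell (Cd3d by 0.64, Cd8b1 by 0.34 and Cd3g by 0.26), and of the 29 probe sets for markers of other cells 2 rose (Cd40lg by 1.04 and Itgax by 0.56, both also known in activated T cells) and 3 fell (Cd79b by 0.69, Klre1 by 0.25 and Itga2b by 0.23). With IFN-4a in resting cells, Cd3d fell by 0.24 and none of the 29 was called. With IFN-4a in both arms 3 rose (Cd40lg by 0.74, Itgax by 0.41 and Cd68 by 0.25) and 3 fell (Cd79b by 0.43, Klre1 by 0.28 and Cd79a by 0.21). None of the 29 but Cd68 stood at 8 or above on all arrays. Their part in the ribosomal protein changes was not tested.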

How the data were processed

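RNA was measured on 12 Affymetrix whole-transcript arrays. The deposited values are on a log scale, taken here as log2, and the authors centred each row on its median over the arrays (largest absolute row median 5e-07). Not given in the sources used here: summarization, between-array normalization, software and log base. Arrays give no count depth, and their number limits the precision. Rows were tested as deposited with limma 3.58.1 in R 4.3.3: 1 mean per group over all 12 arrays, 8 residual and 4.95 prior degrees of freedom, two-sided moderated tests, and Benjamini-Hochberg adjustment over the 23521 rows with 1 symbol in each of 5 comparisons. The procedure was tested on simulated data. Symbols came from the platform's probe table, and all 67 member symbols matched RefSeq. A further 1814 rows had several symbols and 8458 none. Alternatives were other normalizations, rows, array weights, robust variance estimation, a replicate block and left-out arrays.

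Named were the 5 largest called changes per comparison and direction, the stalk and 5S particle genes, Rps6, Rps3, Rpsa, the paralog pairs, and the 3 largest changes per pathway list. Other named probe sets were chosen after their values were seen. The members and lists were chosen with earlier results of these data known.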

Additional observations from a re-analysis of the deposited data

How the results depend on the processing

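Directions and calls of the counts and medians mostly stayed close to those reported: 208 recomputed counts and medians stayed within 1.5 times the count or the spread of array medians, and 20 did not. The calls with IFN-4a in resting cells moved most. Their count of 8 became 5 under quantile normalization, 5 with all rows of the table, 5 of 67 genes with the mean of the rows of a gene, and 17 of 72 among rows at 8 or above on the 6 highest arrays, where fewer rows were tested. Leaving out each array gave 2 to 11 calls, with up to 11 decreases. The count was 11 without the second array with anti-CD3 and IFN-4a. It was also 11 without the third array with PBS and IFN-4a, with 2 increases and 9 decreases. With gene means the calls of Rpl3 and Rpl9 were lost (limma adjusted p = 0.417 and 0.667). With IFN-4a in stimulated cells the count of 0 became 1 with array weights and 1 among rows at 8 or above on the 6 highest arrays, and 0 to 1 with an array left out. For anti-CD3 without IFN-4a the 32 calls became 20 of 72 (13 higher, 7 lower) among rows at 8 or above on the 6 highest arrays. Among members at 8 or above on all arrays, an alternative added after seeing the data, there were 8 calls without and 6 with IFN-4a. Leaving out each array gave 25 to 32 calls without and 25 to 37 with IFN-4a, and 0 for the interaction.

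The median change with anti-CD3 of 0.01 became 0.0485 under quantile normalization and 0.0757 with gene means, and that of 0.06 with IFN-4a became 0.15 with gene means. With arrays left out the medians were 0.00485 to 0.0305 and 0.0519 to 0.105 for anti-CD3 without and with IFN-4a, -0.113 to -0.0707 and -0.0662 to -0.0424 for IFN-4a in resting and stimulated cells, and 0.0164 to 0.0690 for the interaction. Averaging rows turned the sign of uncalled rows of 2 genes, since the mean includes the raised row: the other Rpl3 rows became 0.44 without and 0.43 with IFN-4a, and the other Rpsa row 0.29 and 0.30. Of the single probe sets named, 97 values lost a call, 22 gained one and 6 changed sign, against 3085 on the same side. Those 3085 include values without a call in either fit, so they do not give the share of calls that held. Near-identical rows counted once changed no count of raised rows. The fit on only the groups compared gives no value for the interaction.

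The replicate numbers were not taken to pair arrays: the deviations of same-numbered arrays correlated at -0.0787 to 0.266, above 0.1 in 4 of 12 pairs, although 9 of the 12 arrays correlated best with their own number, a hint from the data and not from the design. With the replicate block, 8 members were called with IFN-4a in resting and 0 in stimulated cells, 32 with anti-CD3 without IFN-4a (28 higher, 4 lower), 33 with it (33 higher, 0 lower) and 0 in the interaction. Among named probe sets the block ended the calls of the 2 lowered Rps19 rows (adjusted p = 0.0712 and 0.0699) and of Rpl39l (0.0537), and added those of an Rplp0 row with IFN-4a in resting cells (0.0397) and of Rps27 with anti-CD3 and IFN-4a (0.0415), all by limma.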

Other observations

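Ribosomal protein genes also appear on probe sets whose annotation lists several symbols, which were outside the rule and are given as values. There were 57 of them with at least 1 ribosomal protein gene. By limma, adjusted over all rows of the table, 19 (33.3%) were called higher and 12 (21.1%) lower with anti-CD3 without IFN-4a, beside 11.7% and 13.98% of all 33793 rows. With IFN-4a in both arms 21 (36.8%) were higher and 3 (5.26%) lower, beside 10.7% and 11.4%. With IFN-4a in resting cells 14 (24.6%) were lower and 0 higher, beside 5.92% and 3.09%. In stimulated cells IFN-4a gave 1 lower (1.75%, beside 0.817%), and the interaction gave 2 higher (3.51%, beside 0.169%), those listing Rpl39 with 2 predicted genes and Rpl13a with Snord34 (0.41, limma adjusted p = 0.0365). Their median changes were -0.04, 0.10, -0.12, -0.04 and 0.08 in that order, against -0.04, -0.03, -0.01, 0.00 and 0.01 over all rows.

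Of 15 probe sets named for a single ribosomal protein pseudogene, 1 was higher (6.67%) and 2 were lower (13.3%) with anti-CD3 without IFN-4a, beside 11.7% and 13.98% of all rows, and none was called in the other 4 comparisons. Their median change with anti-CD3 was -0.09, with a range of -0.97 to 0.49.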
